A study of Mus musculus with 8 samples.

Results

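The complement and coagulation factors are secreted plasma proteins made mainly by the liver, and 44 of their genes were followed here: 22 of the complement system and 22 of coagulation, fibrinolysis and their modulators. The genes were listed by function, and each was read from its brightest probe set over the 8 arrays. Of the 44, 40 had a probe set annotated to that gene alone, and all 40 passed the filter on dim genes and were tested, 19 of complement and 21 of coagulation, among 11986 genes tested in all. C3, Cfd and Cpb2 were not analysed here, and C4b was left out because its probe set is annotated to C4a as well.

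Whole-liver RNA came from 5 POMCMfn2KO mice, which lack the mitochondrial fusion gene Mfn2 in the POMC neurons of the hypothalamus, and from 3 control mice labelled WT, all 6 weeks old and of a mixed C57Bl/6J, FVB/N and 129 background. Chow and water were unrestricted and the light cycle was 12 h on and 12 h off. Each mouse gave 1 array, and the series design names the mice as biological replicates; the Cre line behind the deletion is not given in the sources used here. The deletion lies in neurons, so hepatic Mfn2 does not check the labels; its log2 level was 9.61 ± 0.24 in POMCMfn2KO and 9.88 ± 0.08 in control liver (SD, n = 5 and 3; limma adjusted p = 0.169).

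Complement is a cascade of proteases that marks particles for uptake and ends in a pore in the target membrane. It is started by antibody through C1q, by sugars through the mannose-binding lectins, or by the alternative pathway, and all routes meet at C3. Coagulation is a further protease cascade that ends in thrombin, which cuts fibrinogen into fibrin; anticoagulants restrain it and plasmin dissolves the clot. Hepatocytes make most of these proteins, whereas C1q comes from macrophages, in liver the Kupffer cells, and factor VIII from endothelial cells. Several of the hepatocyte genes are acute phase genes, which answer interleukin-6 through STAT3.

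All levels below are log2 expression levels, and differences are POMCMfn2KO minus control on the log2 scale; passing means an adjusted p under 0.05 in limma, with Benjamini-Hochberg adjustment over the 11986 genes. Most complement and coagulation genes did not pass. Of the 40 tested, 2 rose (C8b and C6) and 2 fell (C4bp and Fgl1), which is 10% of them, against 18% of all genes tested, 7.02% higher and 10.9% lower. Among the 3627 tested genes with a mean level of 9 or more, 23.5% passed, 9.73% higher and 13.8% lower. The median difference over the 40 was -0.03, against -0.02 over all genes tested, and 29 of the 40 differed by less than 0.2 in either direction. At an unadjusted limma p under 0.05 there were 11 (27.5%), of which 6 were higher and 5 lower, against 33.1% of all genes tested.

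**Figure D1:**
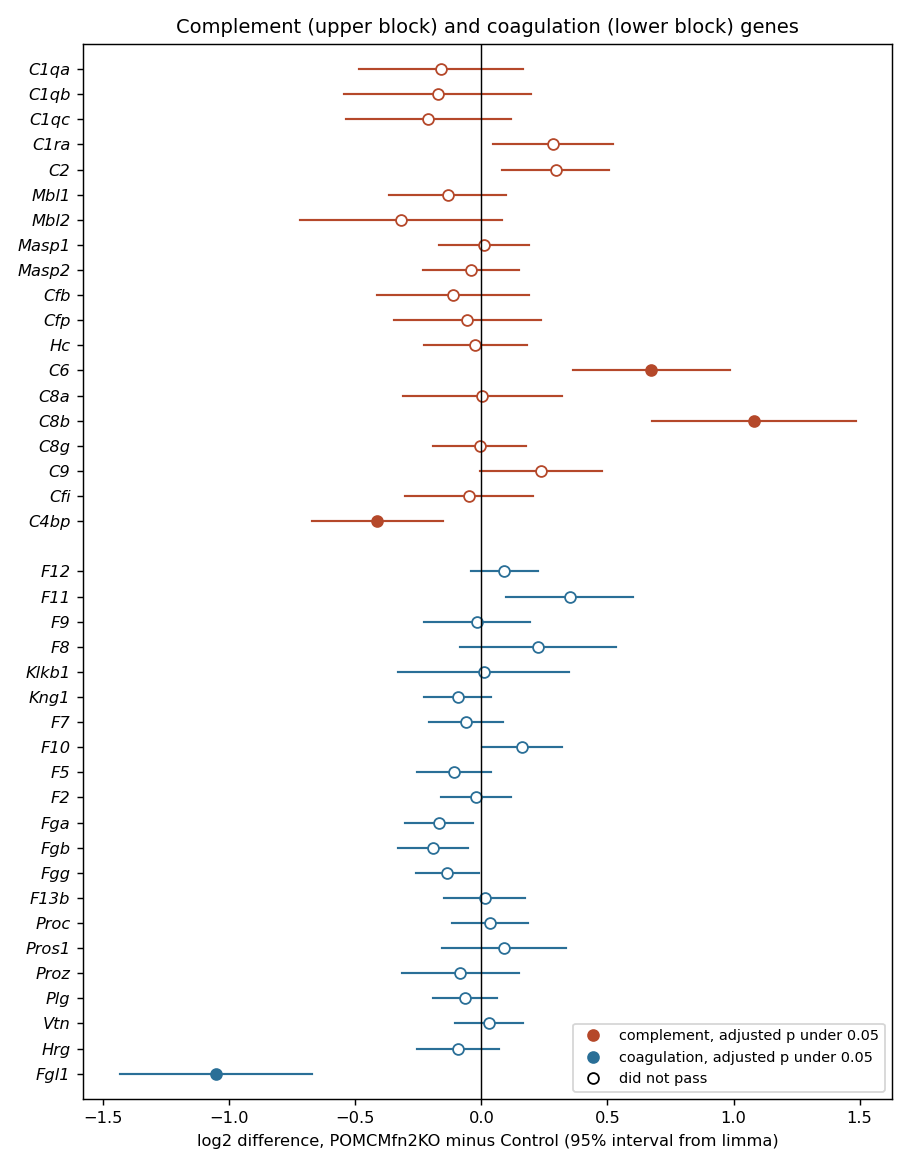
Log2 difference of each tested gene, POMCMfn2KO minus control, on the horizontal axis, with its 95% interval from limma (n = 5 and 3 arrays); complement genes fill the upper block and coagulation genes the lower. Filled points passed at an adjusted p under 0.05: C8b, C6 and C4bp in complement and Fgl1 in coagulation, while the fibrinogen genes lie just left of 0.

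The membrane attack complex held both genes that rose. C8b encodes the beta chain of C8, the component that inserts the growing complex into the membrane. C8b lay at 11.70, 12.11, 12.39, 11.48 and 12.01 in POMCMfn2KO arrays 1 to 5, against 10.90, 10.86 and 10.81 in control arrays 1 to 3. Every POMCMfn2KO array was above every control array, and the mean of 11.94 ± 0.36 against 10.86 ± 0.05 (SD) was a difference of 1.08 ± 0.18 (SE), 2.12-fold (adjusted p = 0.00516). By size this was rank 175 among the 11986 genes. C8b passed in each of the 18 alternative analyses, with adjusted p between 0.000674 and 0.0317.

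C6 joins the complex after C5 is cut and bound. C6 lay at 10.88, 10.90, 11.54, 11.19 and 11.20 in POMCMfn2KO arrays 1 to 5, against 10.51, 10.43 and 10.46 in control arrays 1 to 3. The groups did not overlap, and array 3 was the highest POMCMfn2KO value. The difference was 0.67 ± 0.14 (SE), 1.59-fold (adjusted p = 0.0120), and it lost its call without control 2 (adjusted p = 0.0565) or control 3 (0.0538).

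The other 4 genes of the terminal pathway did not pass. C8a and C8g encode the alpha and gamma chains that assemble with C8b. C8a lay at 12.65, 13.24, 13.30, 13.08 and 13.27 in POMCMfn2KO arrays 1 to 5, against 13.13, 13.09 and 13.10 in control arrays 1 to 3. The POMCMfn2KO values fell on both sides of the controls, and array 1 was the lowest. C8a differed by 0.00 (95% interval -0.31 to 0.32), C8g by -0.01 (-0.19 to 0.18) and Hc, the mouse gene of C5, by -0.02 (-0.23 to 0.18). C9, which polymerises into the pore, differed by 0.24 (adjusted p = 0.159) and passed only without POMCMfn2KO 1 among the 18 alternatives (adjusted p = 0.0291).

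Hc is the entry point of the terminal pathway. Hc lay at 13.04, 13.28, 13.37, 13.15 and 13.41 in POMCMfn2KO arrays 1 to 5, against 13.26, 13.29 and 13.27 in control arrays 1 to 3. The controls lay within the POMCMfn2KO range.

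Within arrays, the difference of C8b minus C8a was -1.17 ± 0.28 in POMCMfn2KO and -2.25 ± 0.04 in control arrays (SD), a shift of 1.08, and the shift of C8b minus C8g was 1.09. These pairs were chosen after their values were seen, so the shifts are a description with no test, and levels of different probe sets cannot be compared.

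C8b and C8a are neighbours on chromosome 4 in the GRCm38.p6 annotation, so their start regions are shown to set the gene that rose beside the gene that did not. The sequences are from RefSeq (GRCm38.p6) and run from 250 bases before the start to 50 after it, 5′ to 3′ on the gene's strand. C8b is at chr4:104766067-104766366 on the plus strand and C8a at chr4:104876349-104876648 on the minus strand. Capitals mark every match to STAT and C/EBP motifs, searched on both strands: the STAT palindromes TTCNNNGAA and its form with 1 more base between the arms, CTGGGAA and TTGCNNAA.
C8b: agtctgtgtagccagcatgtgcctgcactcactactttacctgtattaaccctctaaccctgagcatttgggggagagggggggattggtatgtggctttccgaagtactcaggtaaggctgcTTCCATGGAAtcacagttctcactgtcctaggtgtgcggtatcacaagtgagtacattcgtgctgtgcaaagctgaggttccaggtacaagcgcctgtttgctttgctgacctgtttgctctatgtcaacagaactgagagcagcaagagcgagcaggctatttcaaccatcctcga
C8a: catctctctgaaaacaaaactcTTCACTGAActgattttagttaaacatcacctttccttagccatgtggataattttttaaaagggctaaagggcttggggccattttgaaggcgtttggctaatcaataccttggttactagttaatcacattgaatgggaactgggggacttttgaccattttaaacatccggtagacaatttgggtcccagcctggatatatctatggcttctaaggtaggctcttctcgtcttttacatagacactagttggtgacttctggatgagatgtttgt
The capitals in C8b are a match to the longer STAT palindrome at -127 to -118, and those in C8a a TTCNNNGAA match at -228 to -220, counting the first transcribed base as 1. Such matches occur in 6.95% and 8.30% of all 32851 promoters in the table, and they are letters, not shown binding sites.

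**Figure D2:**
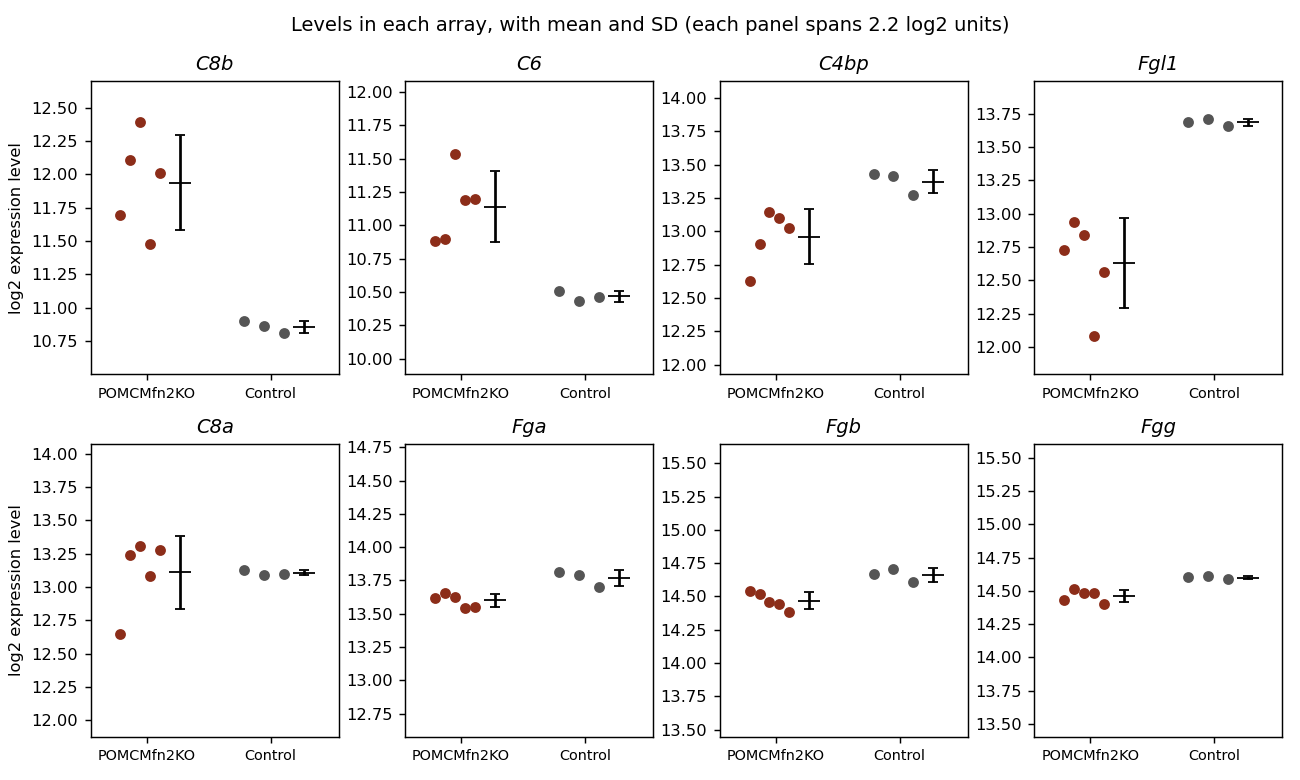
Log2 expression level of 8 genes in each array, POMCMfn2KO on the left and control on the right of every panel, with the group mean and SD beside the points; every panel spans the same number of log2 units. C8b and C6 lie higher in all 5 POMCMfn2KO arrays and C4bp and Fgl1 lower, whereas C8a straddles the controls and the fibrinogen genes sit slightly below them.

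In the initiating steps of complement no gene passed. C1qa, C1qb and C1qc encode the chains of C1q, the antibody-binding head of the classical pathway. C1qa lay at 9.93, 9.87, 9.80, 9.36 and 10.03 in POMCMfn2KO arrays 1 to 5, against 10.12, 9.81 and 9.95 in control arrays 1 to 3. C1qb lay at 10.09, 9.79, 9.83, 9.40 and 10.20 in the same POMCMfn2KO arrays, against 9.93 to 10.22 in the controls. C1qc lay at 8.77, 8.75, 8.81, 8.43 and 9.09 in the POMCMfn2KO arrays, against 8.77 to 9.22 in the controls. POMCMfn2KO array 4 was the lowest and array 5 the highest POMCMfn2KO value for all 3 genes, and the groups overlapped. The differences were -0.16, -0.17 and -0.21 (adjusted p = 0.479, 0.504 and 0.351), and the other probe sets of C1qb gave -0.35 and -0.27.

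Kupffer cell markers are given beside C1q. The unlogged levels of 12 Kupffer and macrophage markers, all above the dim level, were summed and log2 was taken, so bright markers weigh most. Summed levels of other markers below were formed the same way. The summed level of these 12 ranged from 13.53 to 14.21 in POMCMfn2KO and from 13.91 to 14.19 in control liver. POMCMfn2KO arrays 1 and 4 were the lowest. The median difference of the 12 markers was -0.34. At an unadjusted limma p under 0.05 there were 7, 6 lower and 1 higher (58.3%, against 33.1% of all genes tested). By the adjusted p 3 of 12 passed (25%, against 18% of all genes tested): 1 rose, Cd163 (1.46), a scavenger receptor, and 2 fell, Timd4 (-0.69), a receptor for dying cells, and Folr2 (-0.50). Leaving out control 2 or 3 ended the call of Cd163 (largest adjusted p 0.0609), and Folr2 lost its call without any single control or without POMCMfn2KO 2, 3 or 4 (up to 0.192). Their part in the C1q values was not tested, and in whole liver fewer cells of a type and less RNA per cell cannot be told apart.

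C1ra, a protease of the C1 complex, and C2, which joins C4b in the C3 convertase, were higher in all 5 POMCMfn2KO arrays than in any control, with differences of 0.28 (adjusted p = 0.0943) and 0.29 (0.0591) that did not pass. All 3 probe sets of C2 ran the same way (0.24 to 0.29). C2 passed in 5 of the 18 alternatives, among them the fits without POMCMfn2KO 1 (adjusted p = 0.0379) and without POMCMfn2KO 4 (0.0158), and C1ra in 2, of which 1 left out POMCMfn2KO 1 (0.0294). In the lectin pathway the sugar-binding Mbl1 (-0.13) and Mbl2 (-0.32) and the proteases Masp1 (0.01) and Masp2 (-0.04) did not pass. Mbl2 ranged from 11.92 in POMCMfn2KO 1 to 12.90 in POMCMfn2KO 5, while the 3 controls lay between 12.83 and 12.84. In the alternative pathway factor B, Cfb (-0.11), and properdin, Cfp (-0.06), did not pass either.

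Of the fluid-phase regulators, C4bp fell. It encodes the C4b-binding protein, which breaks up the classical C3 convertase and serves factor I as a cofactor. C4bp lay at 12.63, 12.91, 13.15, 13.10 and 13.02 in POMCMfn2KO arrays 1 to 5, against 13.43, 13.42 and 13.27 in control arrays 1 to 3. All POMCMfn2KO values were below all controls, and the difference was -0.41 ± 0.12 (SE), a 1.33-fold fall (adjusted p = 0.0378). The call was lost without POMCMfn2KO 2 (adjusted p = 0.0776) or 5 (0.0514), without control 1 (0.137), 2 (0.132) or 3 (0.0794), and without POMCMfn2KO 2 and 3 together (0.0917). Cfi, factor I itself, differed by -0.05 (95% interval -0.30 to 0.20).

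In coagulation, the proteases and cofactors from contact activation to thrombin did not pass. F12 (0.09), Klkb1 (0.01), the plasma prekallikrein gene, and Kng1 (-0.09), the kininogen gene, start the contact pathway, and F9 (-0.02) follows F11. F12 was higher and Kng1 lower in all 5 POMCMfn2KO arrays than in any control. A dimmer probe set of Kng1 gave a difference of -0.003. F11 was higher by 0.35 (adjusted p = 0.0588), with 4 POMCMfn2KO arrays above the controls and array 5 among them. F11 passed in 5 of the 18 alternatives, including the fit without POMCMfn2KO 5, where the difference was 0.43 (adjusted p = 0.00875). F7 (-0.06), the trigger of the tissue factor pathway, F10 (0.16, adjusted p = 0.143) and its cofactor F5 (-0.11) did not pass. Dimmer probe sets of F10 gave -0.26 and -0.13, so its direction depends on the probe set.

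Prothrombin, the gene F2, did not pass. F2 lay at 13.97, 14.10, 14.10, 14.08 and 14.17 in POMCMfn2KO arrays 1 to 5, against 14.10, 14.10 and 14.11 in control arrays 1 to 3. The controls lay inside the POMCMfn2KO range, and the difference was -0.02 (95% interval -0.16 to 0.12).

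F8, the cofactor made by endothelium, lay at 7.94, 8.32, 8.13, 8.12 and 8.53 in POMCMfn2KO arrays 1 to 5, against 8.19, 7.97 and 7.79 in control arrays 1 to 3. The groups overlapped, and the difference was 0.22 (95% interval -0.08 to 0.53, adjusted p = 0.291). The summed level of 12 sinusoidal endothelial markers, 10 of them above the dim level, ranged from 12.54 to 12.91 in POMCMfn2KO and from 12.28 to 12.59 in control liver. Of the 10 tested, 3 rose (30%, against 7.02% of all genes tested): Stab2 (0.55), Gpr182 (0.65) and Fcgr2b (0.41), and their 10 differences had a median of 0.32. Leaving out control 2 or 3 ended all of these calls (largest adjusted p 0.162, for Fcgr2b), and Fcgr2b also lost its call without POMCMfn2KO 2, 3 or 5 (0.0683 to 0.0832) and was 0.19 as the mean of its probe sets. Their part in the F8 values was not tested.

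The 3 fibrinogen genes were lower by similar small amounts and did not pass. Fga, Fgb and Fgg encode the chains of fibrinogen and are classic acute phase genes. Fga lay at 13.62, 13.66, 13.63, 13.54 and 13.55 in POMCMfn2KO arrays 1 to 5, against 13.81, 13.79 and 13.70 in control arrays 1 to 3. Fgb lay at 14.54, 14.52, 14.46, 14.44 and 14.38 in POMCMfn2KO arrays 1 to 5, against 14.67, 14.71 and 14.61 in control arrays 1 to 3. Fgg lay at 14.43, 14.51, 14.48, 14.49 and 14.40 in POMCMfn2KO arrays 1 to 5, against 14.60, 14.61 and 14.59 in control arrays 1 to 3. For each gene all POMCMfn2KO values were below all controls, as for 11 of the 40 genes in either direction, against 28.5% of all genes tested. The differences were -0.17, -0.19 and -0.13, of which the second is 1.14-fold (adjusted p = 0.0795, 0.0607 and 0.126). Fgb passed in 5 of the 18 alternatives, 1 of which left out POMCMfn2KO 1 (adjusted p = 0.0382), and Fga and Fgg in none. F13b, a carrier subunit of the clot-stabilising factor XIII, differed by 0.01.

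Fgg, Fga and Fgb follow each other on chromosome 3 in GRCm38.p6, and their start regions are shown because the genes ran together. They are at chr3:83025903-83026202 (Fga, plus strand), chr3:83049814-83050113 (Fgb, minus strand) and chr3:83007474-83007773 (Fgg, plus strand), from RefSeq, with capitals for the same motifs as above.
Fga: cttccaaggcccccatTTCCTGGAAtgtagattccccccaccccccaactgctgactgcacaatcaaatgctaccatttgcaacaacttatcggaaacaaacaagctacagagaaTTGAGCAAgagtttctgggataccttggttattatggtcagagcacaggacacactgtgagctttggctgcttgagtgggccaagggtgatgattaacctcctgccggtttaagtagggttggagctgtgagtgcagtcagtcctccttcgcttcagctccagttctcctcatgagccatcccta
Fgb: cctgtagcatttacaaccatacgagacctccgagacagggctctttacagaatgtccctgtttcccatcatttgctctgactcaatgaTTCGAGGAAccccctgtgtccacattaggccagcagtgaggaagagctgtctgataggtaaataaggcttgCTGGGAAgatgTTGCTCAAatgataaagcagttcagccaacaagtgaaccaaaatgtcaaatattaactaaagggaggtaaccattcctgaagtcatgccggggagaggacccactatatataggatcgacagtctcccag
Fgg: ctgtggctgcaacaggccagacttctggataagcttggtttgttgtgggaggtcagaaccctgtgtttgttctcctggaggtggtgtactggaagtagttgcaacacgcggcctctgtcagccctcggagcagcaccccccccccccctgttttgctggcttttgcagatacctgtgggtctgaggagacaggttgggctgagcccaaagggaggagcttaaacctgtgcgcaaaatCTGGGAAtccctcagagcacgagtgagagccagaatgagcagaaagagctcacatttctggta
CTGGGAA, the core of an interleukin-6 response element, stands at -91 to -85 in Fgb and at -13 to -7 in Fgg, and was not found in the window of Fga. The C/EBP motif TTGCNNAA stands at -80 to -73 in Fgb and, on the other strand, at -135 to -128 in Fga. The motif TTCNNNGAA stands at -162 to -154 in Fgb and at -234 to -226 in Fga. In these 3 windows no match overlaps another. CTGGGAA occurs in 11.1% and TTGCNNAA in 10.8% of all 32851 promoters.

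The anticoagulants among the 40 genes, and Plg, Vtn and Hrg, stayed near the control level. Serpina10 and Serpinf2, inhibitors outside the 40, fell and are given below. Proc (0.03), the protein C gene, its cofactor Pros1 (0.09) and Proz (-0.08), the protein Z gene, did not pass. Plg, plasminogen, lay at 14.17, 14.22, 14.23, 14.13 and 14.17 in POMCMfn2KO arrays 1 to 5, against 14.24, 14.22 and 14.29 in control arrays 1 to 3. The groups overlapped and the difference was -0.06 (95% interval -0.19 to 0.06). Vtn (0.03), the vitronectin gene, whose protein binds both terminal complement and the plasminogen activator inhibitor, and Hrg (-0.09), a histidine-rich plasma glycoprotein, did not pass.

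Fgl1 had the only call among the coagulation genes. It encodes a fibrinogen-like protein of hepatocytes that is related to fibrinogen in sequence, is secreted and is not a clotting factor. Fgl1 lay at 12.73, 12.94, 12.84, 12.08 and 12.57 in POMCMfn2KO arrays 1 to 5, against 13.69, 13.71 and 13.66 in control arrays 1 to 3. The groups lay well apart, with array 4 the lowest. The mean was 12.63 ± 0.34 in POMCMfn2KO and 13.68 ± 0.02 in control liver (SD), a difference of -1.05 ± 0.17 (SE), or 2.07-fold lower (adjusted p = 0.00450), rank 187 by size. Fgl1 passed in all 18 alternatives, with adjusted p between 0.000481 and 0.0279.

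Set side by side, complement had 3 calls among 19 genes (15.8%) and coagulation 1 among 21 (4.76%), both under the 18% of all genes tested. The median differences were -0.04 and -0.02, and neither is steady: with 1 array left out they ran from -0.065 (without POMCMfn2KO 5) to -0.00093 (without control 1) for complement, where leaving out POMCMfn2KO 1 gave -0.0064 and POMCMfn2KO 4 -0.018. For coagulation they ran from -0.055 (without POMCMfn2KO 2) to -0.0071 (without POMCMfn2KO 1), and the median was -0.040 without POMCMfn2KO 5 and 0.0047 after quantile normalization. The median size of the difference without its sign was 0.16 for complement and 0.09 for coagulation. It was 0.14 for all genes tested and 0.17 for those with a mean level of 9 or more. Of the complement genes 11 of 19, and of the coagulation genes 18 of 21, differed by less than 0.2. The arms also differed in level, with medians of 11.53 for complement and 12.38 for coagulation, against 7.96 for all genes tested. Whether such high levels bear on the size of the differences was not tested. No coagulation gene was called higher, against 7.02% of all genes tested, and 2 were higher at an unadjusted limma p under 0.05. In either direction 6 of the 21 had such a p (28.6%, against 33.1% of all genes tested). Without POMCMfn2KO 1 the complement genes called higher numbered 5, and without control 2 or 3 they numbered 1. Without POMCMfn2KO 2 or 5, or without any single control, no complement gene was called lower. The coagulation genes called lower numbered 2 without POMCMfn2KO 1, and 1 was called higher without POMCMfn2KO 5. The share of all genes called moves as well, with 820 to 863 called when a control was left out.

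**Figure D3:**
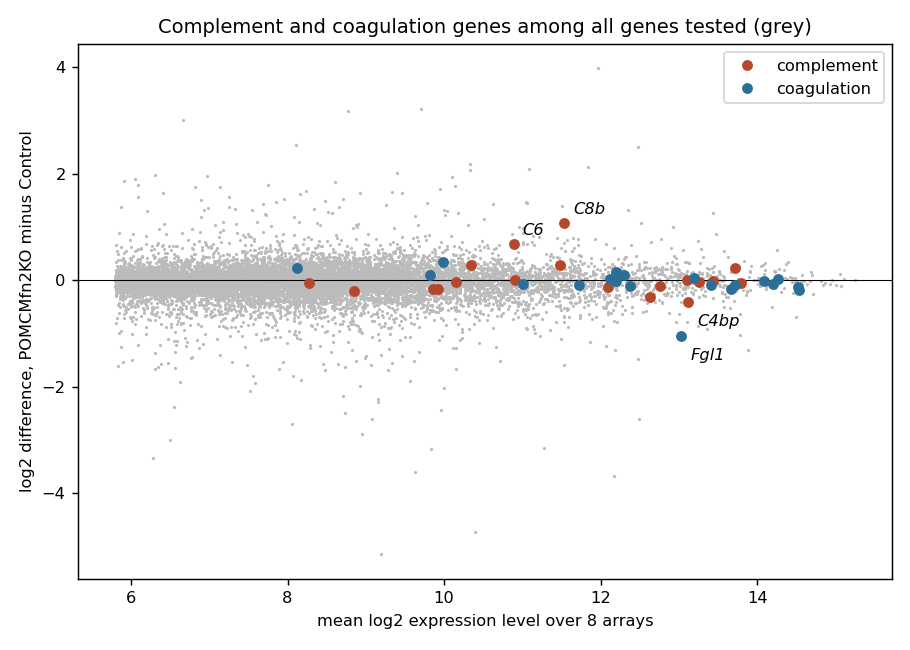
Log2 difference, POMCMfn2KO minus control, against the mean log2 level over the 8 arrays for the 11986 tested genes (grey), with the 19 complement and 21 coagulation genes coloured. Most coloured points lie near 0 on the right of the plot, and C8b, C6, C4bp and Fgl1 stand off the line.

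The POMCMfn2KO arrays differed more among themselves than the controls did. The median SD of a gene within the group was 0.17 in POMCMfn2KO and 0.04 in control for the 40 genes, against 0.13 and 0.07 for all genes tested. It was 0.21 and 0.05 for complement and 0.08 and 0.04 for coagulation. Among the POMCMfn2KO arrays, array 1 held the lowest value for 19 of the 40 genes and array 4 for 15, while arrays 3 and 5 held the highest for 13 each. Array 1 was the lowest for Cfb (12.29), Mbl2 (11.92), C8a (12.65), Cfi (13.46) and Klkb1 (11.68), yet for Pros1 it was the highest (10.18).

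**Figure D4:**
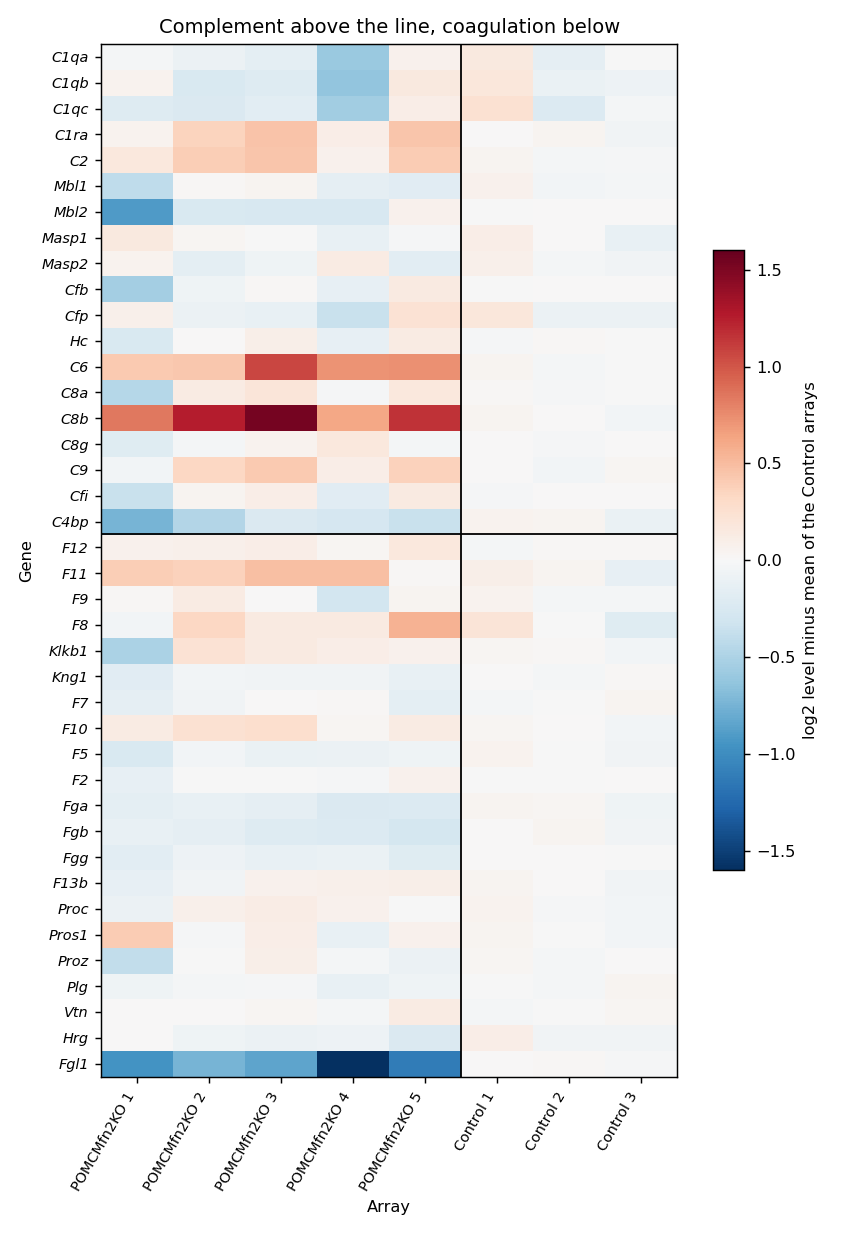
Log2 level of each tested gene in each array minus the mean of the control arrays, as colour (red above, blue below), with POMCMfn2KO arrays left of the vertical line and complement genes above the horizontal line. The rows of C8b and C6 are red and those of Fgl1 and C4bp blue in all 5 POMCMfn2KO arrays, and POMCMfn2KO 1 is blue for many hepatocyte genes such as Mbl2 and Cfb.

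Over the whole series, pancreatic acinar transcripts stood out in POMCMfn2KO arrays 2 and 3: the summed level of 10 markers was 14.21 and 14.34 there, 10.19 to 10.89 in the other 3 POMCMfn2KO arrays, and 10.12 to 10.17 in the controls. None of the 9 tested acinar markers passed (0 at an unadjusted limma p under 0.05). Without these 2 arrays C8b, C6 and Fgl1 still passed, and C4bp did not, as given above. Hepatocyte markers were bright in every array, at a summed level of 17.56 to 17.69 in POMCMfn2KO and 17.52 to 17.53 in control liver. Of these markers 1 of 8 rose (12.5%), against 7.02% of all genes tested and 9.73% of those with a mean level of 9 or more. It was Cps1 (0.31), a urea cycle enzyme that lost its call without POMCMfn2KO 3 or any control (adjusted p up to 0.0974). The labels give no sex; the Y-linked genes Eif2s3y (0.01) and Kdm5d (0.05) did not pass, and Xist lay below the dim level of 5.80 in both groups. Of 6 tested neutrophil markers 1 fell (16.7%, against 10.9% of all genes tested), S100a9 (-1.56). The other 5 ran from -0.19 (Ngp) to 0.09 (Elane), and the median was -0.11. S100a8 and Ltf were too dim to be tested, with means of 4.82 and 5.65 in POMCMfn2KO and 6.28 and 5.97 in control liver. The summed level of all 8 neutrophil markers ranged from 8.77 to 8.90 in POMCMfn2KO and from 9.29 to 9.37 in control liver. Of 2 tested adipocyte markers none passed: Car3, also a hepatocyte gene, was 13.39 in POMCMfn2KO and 14.70 in control liver, and Retn differed by -0.03, while the means of Adipoq and Lep lay below the dim level.

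Other genes of the complement pathway gave no call, and those of coagulation were called about as often as all genes. Of 28 other complement entries, 14 were tested and none passed, against 18% of all genes tested. At an unadjusted limma p under 0.05 there were 4 (28.6%, against 33.1% of all genes tested). Differences ran from -0.36 (Cd59a, an inhibitor of the pore) to 0.34 (Fcna, a ficolin), and the median was -0.02. Of 28 other coagulation entries, 19 were tested, 2 rose and 2 fell (21.1%, against 18% of all genes tested), with a median of 0.04. Lman1, whose protein carries factors V and VIII out of the endoplasmic reticulum, rose by 0.40 (adjusted p = 0.00720) and passed in all 18 alternatives, with 0.87 from its most variable probe set. Mug1, a murinoglobulin that traps proteases, rose by 0.32 (adjusted p = 0.00919) a call that ended without control 2 (0.0521). Serpina10, the inhibitor that works with protein Z, fell by 0.48 (adjusted p = 0.0276), and Serpinf2, antiplasmin, fell by 0.30 (0.0375). The call of Serpina10 ended without POMCMfn2KO 2 or any control (adjusted p up to 0.104), and Serpinf2 without POMCMfn2KO 2, 3 or 5 or any control (up to 0.136). Serpinc1, antithrombin, differed by 0.04 (95% interval -0.09 to 0.16).

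Among 16 tested transcription factors of liver genes, 2 rose and 2 fell (25%, against 18% of all genes tested). Stat3, the interleukin-6 effector, fell to 9.61 ± 0.15 in POMCMfn2KO liver, against 10.17 ± 0.12 in control liver (SD; adjusted p = 0.00620), and passed in all 18 alternatives, with -0.34 as the mean of its probe sets. Cebpa, a hepatocyte factor, fell by 0.29 (adjusted p = 0.0355) and was lost without POMCMfn2KO 3 or 5 or any control (up to 0.133), and with quantile normalization (0.0584) or the replicate block (0.0641). The pioneer factors Foxa1 (1.27, adjusted p = 0.0144) and Foxa3 (0.48, 0.0120) rose, Foxa1 being lost without any single control (up to 0.0646) and Foxa3 without control 2 or 3 (up to 0.0600). Hnf4a (0.22, adjusted p = 0.268) and Cebpb (0.30, 0.324) did not pass. Without POMCMfn2KO arrays 2 and 3, where acinar transcripts were high, Lman1, Serpina10, Stat3, Foxa1 and Timd4 passed, and Mug1, Serpinf2, Cebpa, Foxa3, Cps1, Cd163, Folr2, Stab2, Gpr182 and Fcgr2b did not. Whether any of these factors bears on the complement and coagulation genes was not tested.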

How the data were processed

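Liver RNA of 8 mice was labelled as biotinylated cRNA and hybridised to Affymetrix arrays, per the labels' protocols. The authors deposited 1 log2 level for every probe set and array. The submitters' processing notes name RMA and affy; versions are not given in the sources used here. The array medians lay between 5.79 and 5.81. Arrays carry no read depth, so their number limits the precision.

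Of 45101 probe sets, 34945 had exactly 1 gene symbol, 932 several and 9160 none, besides 64 controls. The brightest single-gene probe set was kept for 18193 genes, and the 11986 whose mean reached 5.80, the median probe set level without controls, were tested. Probe sets of C2 and Hrg are of kinds that can bind related transcripts. The test was limma 3.58.1 in R 4.3.3 (no trend, not robust), 2-sided, and 95% intervals are for single genes. It was tried on simulated data that gave a gene the same SD in both groups, whereas here the median SD was larger in POMCMfn2KO. No list was tested: lists are given by counts and medians.

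The members, lists, motifs and tests were chosen with earlier results of these data known. Values in every array are given for the calls of each arm, which the plan limited to the 8 largest, and for 11 genes named in the plan. Of these 11, C3 was not analysed, and the control values of C1qb and C1qc are given as ranges. Of the other genes, the 4 largest calls per list are named; the marker genes were named after their values were seen, as were the sex chromosome genes and Mfn2. Alternatives changed the filter, the probe set, the scaling, the variance model or took replicate numbers as a block; others left out arrays. Start regions were also searched for HNF4 and TATA box motifs and for 1 further motif that is not reported here. Figures used matplotlib 3.10.9 in Python 3.11.15.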

Additional observations from a re-analysis of the deposited data

Results flagged for a closer look

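In 4 of the 40 genes, 1 POMCMfn2KO array lay far from the other 4 by Dixon's criterion, all 4 in coagulation. Such gaps were found in 7.36% of all 11986 genes tested, and chance gives them in about 1 in 20 groups. F11 was 9.79 in POMCMfn2KO 5, with the nearest array at 10.15. F9 was 11.91 in POMCMfn2KO 4, with the nearest at 12.21. Klkb1, the neighbour of F11 on chromosome 8, was 11.68 in POMCMfn2KO 1, with the nearest at 12.25. F5 was 12.21 in POMCMfn2KO 1, with the nearest at 12.35.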

How the results depend on the processing

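Of the 18 alternatives run for each of the 40 genes, C8b and Fgl1 passed in all, C6 in 16 and C4bp in 11. Of the 36 others, 6 passed in at least 1. F10 turned to -0.26 with the most variable probe set (adjusted p = 0.0406). The cause of these changes was not tested.

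The count of genes called, 2152 in the fit reported, was 640 (239 higher, 401 lower) without POMCMfn2KO arrays 2 and 3, and 820 to 2760 when 1 array was left out (286 to 1156 higher, 496 to 1642 lower); the lowest was without control 2 and the highest without POMCMfn2KO 1. With array weights 1323 were called higher. Complement genes called higher numbered 4 with array weights and 1 to 5 when 1 array was left out; those called lower numbered 0 with the replicate block and without POMCMfn2KO 2 and 3, and 0 to 1 when 1 array was left out. Coagulation genes called higher numbered 1 with the upper-quartile filter, quantile normalization, array weights and the replicate block, and 0 to 1 when 1 array was left out. Those called lower numbered 2 with the upper-quartile filter, the mean of all probe sets, the most variable probe set, trended and robust variance and array weights, and 1 to 2 when 1 array was left out. Other complement genes called numbered 1 with the upper-quartile filter and array weights, 3 with the replicate block, and 0 to 1 when 1 array was left out. Other coagulation genes called numbered 2 without POMCMfn2KO 2 and 3, and 1 to 5 when 1 array was left out. The coagulation median was -0.089 without POMCMfn2KO 2 and 3.

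No sign was seen that replicate numbers pair the mice. Deviations of same-numbered arrays correlated at 0.04, 0.04 and -0.03, and those of arrays with different numbers at -0.08 to 0.05. These 3 values cannot exclude a pairing. With the replicate block C4bp did not pass (adjusted p = 0.0687) and F11 did (0.0378), and among the other named genes Cebpa (0.0641), Serpina10 (0.0584), Folr2 (0.107) and Fcgr2b (0.149) did not.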

Other observations

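Of the 40 genes, 30 had 1 probe set above the dim level and 10 had several. In 7 of these 10 all probe sets ran in the same direction, and in 3, Cfp, F10 and F5, they did not.

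A start region was found for 31 of the 40 genes, 14 of complement and 17 of coagulation. CTGGGAA was present in 7 of the 31 (22.6%), against 11.1% of all 32851 promoters. TTCNNNGAA was present in 8 (25.8%), against 8.30%, and TTGCNNAA in 8 (25.8%), against 10.8%. The longer STAT palindrome was present in 2 (6.45%), against 6.95%. TATAAA was present in 4 (12.9%), against 13.6%. The HNF4 motif, searched as CAAAGTCCA, was present in 0, against 0.475% of all promoters, so a count of 0 among 31 says little. These are shares over genes that include neighbours and relatives, and in F9, Masp2 and Vtn a CTGGGAA match overlaps a TTCNNNGAA match.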
